A study of Mus musculus with 6 samples.

Results

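The genes described here encode protein components of the spliceosome and the RNA-binding proteins that steer it. They were chosen by symbol, taking every gene whose name began with Snrp, Sf3a or Sf3b and a digit, U2af, Zrsr, Srsf and a digit, Prpf and a digit, or Hnrnp. Symbols ending in -ps were left out, as were genes with fewer than 60 counts summed over all libraries. This gave 69 of the 18491 genes analysed. They comprise 12 Sm and snRNP genes, 9 SF3 genes, 5 genes of the U2AF family, 10 Srsf genes, 13 Prpf genes and 20 Hnrnp genes. Snrpert, counted among the 12, is annotated as a processed pseudogene. The rule itself used no measured difference between the groups, but the genes were chosen with earlier results of these data known. The rule left out 3 symbols ending in -ps and Snrpn, which had 47 counts over all libraries. All 69 genes passed the filter on low counts.

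The spliceosome removes introns from pre-mRNA. It is built from small nuclear ribonucleoproteins (snRNPs), each an RNA held in a ring of Sm proteins together with proteins of its own. The U2 snRNP carries the SF3A and SF3B complexes and recognises the branch point, while the U2AF proteins mark the 3' splice site. SR proteins, encoded by the Srsf genes, mostly promote the use of nearby splice sites, and hnRNPs package pre-mRNA and often oppose them. In human myelodysplastic syndromes, which arise in haematopoietic stem cells, SF3B1, SRSF2, U2AF1 and ZRSR2 are recurrently mutated. The mouse orthologues of these genes are therefore given library by library.

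The study asked how loss of Robo1, a receptor for Slit guidance proteins, alters haematopoietic stem and progenitor cells. Such cells were taken from the bone marrow of mice by flow cytometric sorting, and their RNA was sequenced. There were 3 KO and 3 WT libraries, grouped here by the sample descriptions. According to the design text, Robo1 was deleted with Mx1-cre after 3 doses of poly(I:C), and cells were sorted 8 months after that injection. Poly(I:C) is a synthetic double-stranded RNA. It induces the Mx1 promoter, which is active in blood-forming cells and also in other tissues. The sorting time is stated for WT libraries too, but the labels do not say whether the WT mice carried Mx1-cre. Other labels differ. The titles call the same libraries shROBO1 and shCtrl, the genotype field reads ROBO1 knockdown and WT, while under treatment KO library 1 is given as ROBO1 knockdown, library 2 as ROBO2 knockdown and library 3 as ROBO3 knockdown, and each WT library as a scramble shRNA control. Neither Robo1 nor Robo2 was analysed here, and no label was checked against its transcript. The sources used here do not give age, sex, strain background or pooling of animals. Nor do the labels say that the libraries came from separate animals. The p-values therefore reflect no more than the variation among these 6 libraries, part or all of which may be technical.

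Total counts per library were 42235077 to 57058267 in KO and 44578916 to 58106099 in WT. The 100 most abundant genes took 59.7 to 60.8% of the counts in KO libraries and 42.3 to 43.3% in WT libraries. Mitochondrially encoded genes took 4.49 to 4.98% in KO and 2.42 to 3.13% in WT, and genes with a count numbered 16232 to 16609 in KO and 17418 to 17671 in WT, so neither measure overlapped between the groups. Their part in the results was not tested. The choice of scaling set the sign of many fold changes. TMM, the scaling used unless another is named, corrects for such differences in composition, and placed the median log2 fold change of all 15474 genes tested at -0.09. With total counts alone the same median was -1.22, a shift of -1.13. A gene was called when its Benjamini-Hochberg adjusted p in edgeR's quasi-likelihood test was under 0.05. "Rose" and "fell" below refer to such calls with TMM, and CPM is the count scaled to the TMM-adjusted size of the library. Summed stem and progenitor markers, such as Kit and Cd34, stood at 217 to 224 CPM in KO and 196 to 201 CPM in WT (2 of 8 higher, 1 lower). Neither Kit nor Cd34 passed. Neutrophil markers summed to 264600 to 280500 CPM in KO and 84640 to 94890 CPM in WT, with 6 of 7 called higher. Most of that sum was Mpo (144740 to 152780 CPM in KO, 47373 to 51024 CPM in WT) and Elane. Prtn3, Ctsg and S100a8 rose too. Ngp rose by 0.37 on the log2 scale but stood at -0.76 with total counts, and Ltf did not pass. Eosinophil, basophil and mast cell markers summed to 41870 to 47530 CPM in KO and 5490 to 6665 CPM in WT, with 4 of 5 called higher. Erythroid markers summed to 2912 to 3496 CPM in KO and 889 to 1176 CPM in WT (2 of 6 higher, 1 lower), monocyte and macrophage markers to 2971 to 3364 CPM in KO and 790 to 883 CPM in WT (2 of 6 higher, 1 lower), and B and plasma cell markers to 1009 to 1200 CPM in KO and 691 to 781 CPM in WT (1 of 7 higher, 2 lower). Most of the erythroid sum was Hba-a1 (2240 to 2658 CPM in KO, 692 to 914 CPM in WT), and Klf1 fell. The monocyte sum was mostly Ly6c2 (2862 to 3257 CPM in KO, 680 to 766 CPM in WT), and Cd68 fell. Jchain held most of the B cell sum (925.5 to 1117 CPM in KO, 598 to 668 CPM in WT). Cd79a and Cd79b fell. T and NK cell markers were scarce, at 8.02 to 9.30 CPM in KO and 13.7 to 14.7 CPM in WT (0 of 5 higher, 1 lower). Megakaryocyte markers summed to 164.5 to 182.8 CPM in KO and 144.1 to 153.3 CPM in WT (1 of 3 higher, 1 lower). Most of that sum was Pf4 (142 to 159 CPM in KO, 116 to 122 CPM in WT). Gp1bb fell, at a log2 fold change of -1.59, and Itga2b did not pass. Pecam1, an endothelial marker, stood at 9.61 to 12.6 CPM in KO and 12.0 to 13.6 CPM in WT. As shares of total counts the neutrophil, eosinophil, erythroid and monocyte sums were again higher in KO, while the stem, B cell and megakaryocyte sums were lower in KO; the stem and progenitor sum was then 143 to 153 CPM in KO and 281 to 305 CPM in WT. No listed marker that was found stood at 0 in every library. The part of these cells in the results below was not tested. In bulk samples like these, fewer cells of a type and less RNA per cell cannot be told apart.

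With TMM, 28 of the 69 splicing genes rose in KO, 11 fell and 30 did not pass, while total counts gave 3 higher, 60 lower and 6 not passing. Among all genes tested, 17.2% were higher and 14.4% lower with TMM (31.7% in either direction), and 4.23% higher and 70.7% lower with total counts. The median log2 fold change of the 69 genes was 0.09 with TMM and -1.05 with total counts, each above the median of all genes. At 2-fold or more, 8 of the 69 rose and 2 fell, against 8.26% and 3.45% of all genes tested. Every KO library lay above every WT library for 30 of the 69 and below for 17, against 22.2% and 24.4% of all genes. As shares of total counts, 4 of the 69 lay above and 59 below in the same sense, against 4.85% and 76.1% of all genes. Of the 28 genes that rose with TMM, 19 were called lower with total counts. Set against the median gene, a gene's position barely depended on the scaling, since the values under TMM and total counts differed by at most 0.0134 on the log2 scale. A change of scaling shifts all genes by nearly the same amount. Agreement between TMM and total counts on that relative scale was therefore fixed in advance. On it 46 of the 69 lay above the median gene. A correction for exon length and GC content gave 40 higher and 7 lower, against 21.0% and 9.11% of all genes.

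**Figure D1:**
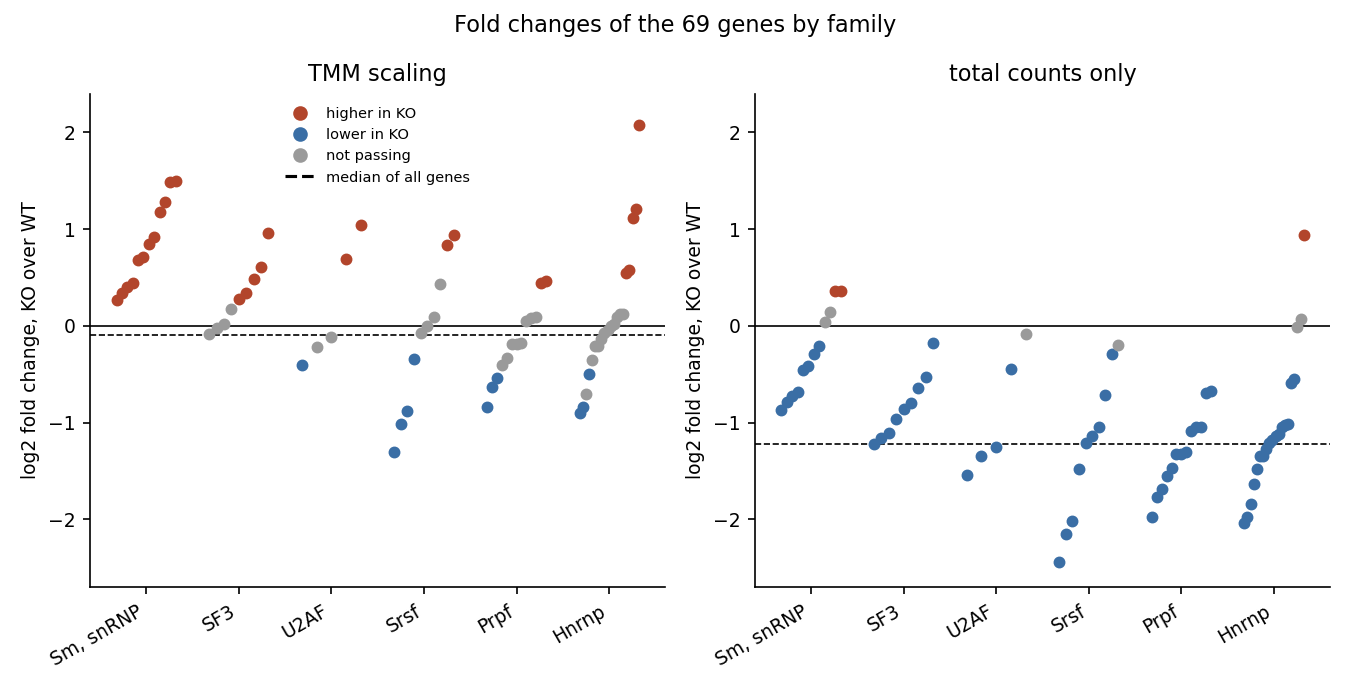
Log2 fold change (KO over WT) of each of the 69 genes, grouped by family, with TMM scaling on the left and total counts only on the right. Points are genes coloured by their edgeR call, the solid line is 0 and the dashed line is the median of all genes tested. The panels differ by a nearly constant shift. All 12 Sm and snRNP genes lie above the dashed line, although 8 of them are called lower with total counts.

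Sm and snRNP genes were the one family in which every gene was called in the same direction with TMM. All 12, Snrpert included, rose, with a median log2 fold change of 0.78. With total counts 2 (Snrpg and Snrpert) were called higher and 8 lower, and the median was -0.36. Of all genes tested, 17.2% were higher with TMM, and 4.23% higher and 70.7% lower with total counts. No gene of this family was called lower with TMM by edgeR, where 14.4% of all genes were. DESeq2 called 0 lower, against 2164 of 18132 genes. At an unadjusted p under 0.05 the edgeR count was also 0, but the share of all genes at that threshold is not given. Relative to the median gene the family's median was 0.87 with TMM and 0.79 after the length and GC correction, and 12 of 12 lay above it each time. Snrpg, a member of the Sm ring, had 697, 710.2 and 625 CPM in the KO libraries, against 272, 216 and 233 CPM in the WT libraries. Each KO library thus exceeded each WT library by more than the spread within either group. Snrpg had the largest log2 fold change of the family, at 1.49 (edgeR adjusted p = 2.36e-06, SE 0.09), and was also called higher with total counts, at 0.36. Snrpe, another ring protein and the member of highest length-scaled level, had 408, 395 and 421 CPM in the KO libraries, against 182, 165 and 157 CPM in the WT libraries. Its groups did not overlap, and its log2 fold change was 1.28 (edgeR adjusted p = 1.1e-06, SE 0.07) with TMM and 0.15 with total counts, the last not passing (edgeR adjusted p = 0.059). Snrpb, which encodes the ring protein SmB, had 678, 705 and 722 CPM in the KO libraries, against 321, 300.5 and 311 CPM in the WT libraries. Its groups too lay apart, at a log2 fold change of 1.17 (edgeR adjusted p = 5.07e-07, SE 0.06) with TMM and 0.04 with total counts.

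With TMM the size of the rise was unequal within the ring and among the snRNP-specific proteins. Snrpd2 rose by 0.34 on the log2 scale (edgeR adjusted p = 0.0099, SE 0.08) and stood at -0.79 with total counts. Its CPM was 433, 412 and 423 in the KO libraries and 373, 321 and 305 in the WT libraries. Snrpb2, the U2 snRNP protein B'', had the smallest rise of the family, at 0.26 (edgeR adjusted p = 0.0284, SE 0.08) with TMM and -0.87 with total counts. Although its groups did not overlap, at 37.8, 41.7 and 41.5 CPM in KO and 33.7, 32.9 and 34.2 CPM in WT, its call was lost with the replicate block and without KO library 2 or 3 or WT library 2 or 3. The U1 proteins Snrpc and Snrpa and the U2 protein Snrpa1 rose by 0.68, 0.45 and 0.40 with TMM, and stood at -0.46, -0.69 and -0.73 with total counts. Counts of Snrpb per count of Snrpb2, a ratio that needs no scaling between libraries, were 17.9, 16.9 and 17.4 in the KO libraries and 9.54, 9.13 and 9.09 in the WT libraries.

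Snrpert has to be read with Snrpe. It is annotated as a processed pseudogene on chromosome 2, an intronless copy of the Snrpe transcript. Snrpe itself lies on chromosome 1. Over the 279 bases of the Snrpe coding sequence the copies have 3 mismatches, an identity of 98.9%. Few bases therefore tell reads of these genes apart. Snrpert had 64.6, 82.4 and 78.4 CPM in the KO libraries, against 26.6, 27.4 and 26.3 CPM in the WT libraries, and a log2 fold change of 1.49 (edgeR adjusted p = 3.62e-06, SE 0.10) with TMM and 0.36 with total counts. The ratio of Snrpe to Snrpert counts was 6.31, 4.80 and 5.37 in the KO libraries and 6.84, 6.04 and 5.98 in the WT libraries, so the groups overlapped. The sources used here do not say how the authors' counting divided reads between the copies, and their separate values are uncertain.

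SF3 genes, which encode the U2-associated complexes, gave 5 higher, 0 lower and 4 not passing of 9 with TMM. With total counts 9 of 9 were lower. The shares over all genes tested were 17.2% higher and 14.4% lower with TMM, and 70.7% lower with total counts. DESeq2 after adjustment gave 6 higher and 0 lower, against 2830 higher and 2164 lower of 18132 genes. At an unadjusted p under 0.05 edgeR also gave 6 higher and 0 lower with TMM. The share of all genes at that threshold is not given. Relative to the median gene all 9 were above it with TMM and after the length and GC correction, with a median of 0.37 with TMM. Sf3b1, the SF3B subunit that holds the branch point region, had 485, 475 and 519 CPM in the KO libraries, against 239, 263 and 259 CPM in the WT libraries. It lies on chromosome 1 (54985169 to 55027481, minus strand, GRCm38). The KO libraries were all above the WT libraries, with a log2 fold change of 0.96 (edgeR adjusted p = 4.16e-06, SE 0.07), yet with total counts the gene was called lower at -0.18 (edgeR adjusted p = 0.0482) and its groups overlapped. Sf3b5, a small SF3B subunit and the highest of the family per length, rose by 0.60 (edgeR adjusted p = 0.000143, SE 0.07) and stood at -0.53 with total counts. Sf3b4 followed at 0.49 with TMM and -0.65 with total counts.

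Within SF3, the large subunits differed in their values. Sf3b3, the SF3B scaffold, had 46.2, 48.7 and 44.4 CPM in the KO libraries, against 42.3, 49.1 and 50.4 CPM in the WT libraries, and its groups overlapped at a log2 fold change of -0.02 (edgeR adjusted p = 0.865, SE 0.09). After the length and GC correction Sf3b3 turned to 0.31 and was called higher (edgeR adjusted p = 0.0113), also with the replicate block added. Counts of Sf3b1 per count of Sf3b3 were 10.5, 9.73 and 11.7 in the KO libraries and 5.66, 5.35 and 5.14 in the WT libraries. The SF3A genes Sf3a1, Sf3a2 and Sf3a3 did not pass with TMM, at -0.09, 0.02 and 0.18, and Sf3a2 was counted at no more than 2.61 CPM in any library. Every KO library of Sf3a3 lay above every WT library, and it was called higher with RLE size factors, with DESeq2, with the filter of 1 CPM in 3 libraries, and after the length and GC correction with and without the block.

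The U2AF family split, with 2 higher, 1 lower and 2 not passing of 5 with TMM and 4 lower with total counts. Over all genes tested, 17.2% were higher and 14.4% lower with TMM, and 70.7% lower with total counts. U2af1, the small subunit that contacts the AG of the 3' splice site, had 294, 280.2 and 296 CPM in the KO libraries, against 189.8, 178 and 174 CPM in the WT libraries. Its position is chromosome 17, 31647081 to 31658892, minus strand, GRCm38. All 3 KO values were above all 3 WT values, at a log2 fold change of 0.69 (edgeR adjusted p = 3.18e-05, SE 0.06), while total counts gave -0.45. U2af2, the large subunit that binds the polypyrimidine tract, had 17.7, 16.1 and 13.5 CPM in the KO libraries, against 8.42, 7.37 and 7.16 CPM in the WT libraries. It rose by 1.05 (edgeR adjusted p = 0.000274, SE 0.13) and was not called with total counts, at -0.09. U2af1l4, a paralogue of U2af1, fell: it had 30.1, 35.8 and 31.1 CPM in the KO libraries, against 43.4, 44.9 and 40.4 CPM in the WT libraries, with a log2 fold change of -0.41 (edgeR adjusted p = 0.00859, SE 0.09). Counts of U2af1 per count of U2af1l4 were 9.79, 7.83 and 9.51 in the KO libraries and 4.38, 3.96 and 4.30 in the WT libraries, without overlap.

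Zrsr2, a U2AF1-related protein that recognises 3' splice sites of minor-class introns, was low in every library. It lies on chromosome X (163935443 to 163958661, minus strand, GRCm38) and had 4.75, 5.45 and 5.68 CPM in the KO libraries, against 5.39, 6.82 and 6.18 CPM in the WT libraries. The groups overlapped, and the log2 fold change of -0.21 (SE 0.15) did not pass (edgeR adjusted p = 0.335). With total counts the gene was called lower at -1.35, near the median gene, and after the length and GC correction its value was 0.07. Zrsr1, its retrotransposed paralogue, also overlapped between groups, at 1.67, 3.19 and 2.37 CPM in KO and 2.34, 3.25 and 2.26 CPM in WT.

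**Figure D2:**
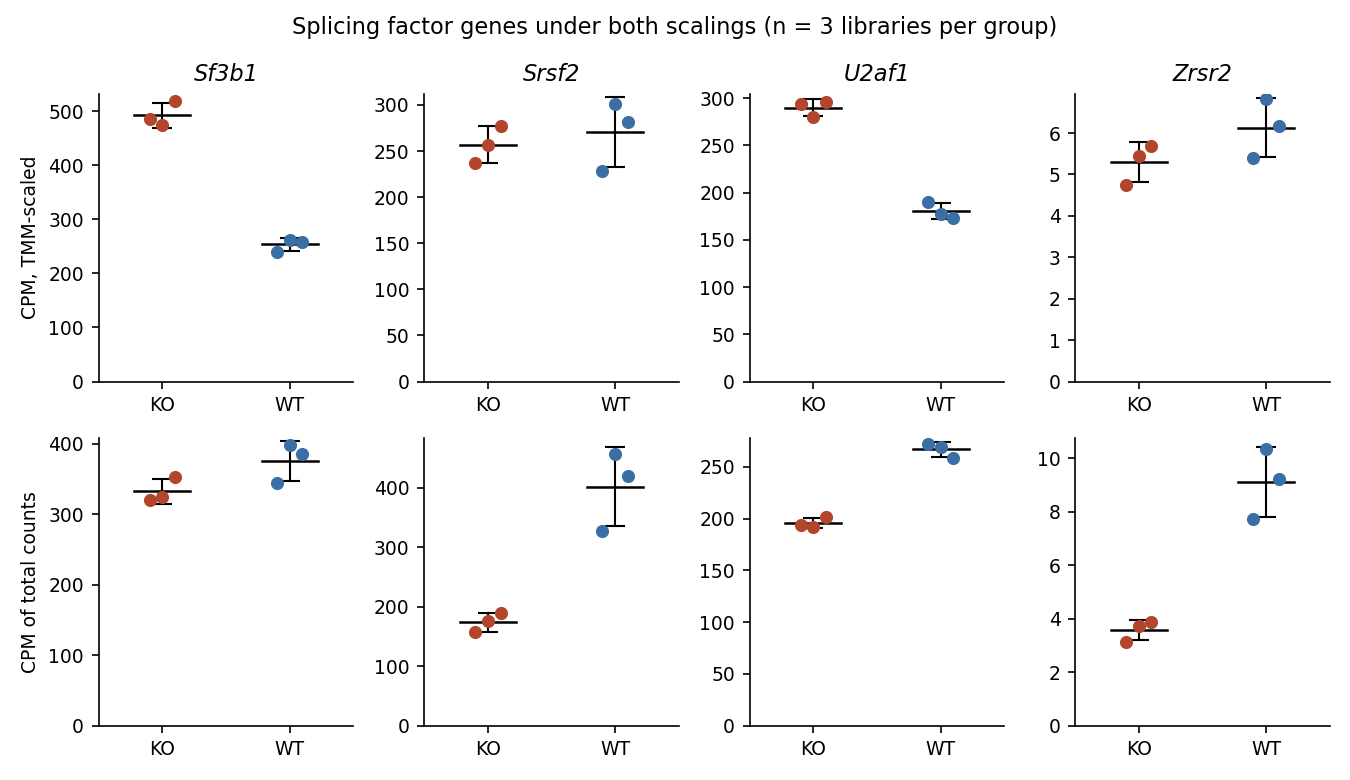
CPM per library of Sf3b1, Srsf2, U2af1 and Zrsr2 in KO (left in each panel) and WT (right), scaled by TMM in the upper row and by total counts in the lower row. Points are libraries, horizontal lines are means and bars are SDs (n = 3 each). With TMM the KO libraries of Sf3b1 and U2af1 lie above the WT libraries, and with total counts none of the 4 genes has its KO mean above its WT mean.

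SR protein genes moved in both directions, with 2 higher, 4 lower and 4 not passing of 10 with TMM and 9 lower with total counts. Among all genes tested, 17.2% were higher and 14.4% lower with TMM, and 70.7% lower with total counts. Srsf3 and Srsf7, which also serve as adaptors for mRNA export, were the members that rose. Srsf3 had 308, 323 and 287 CPM in the KO libraries, against 143, 169 and 166 CPM in the WT libraries, without overlap (log2 fold change 0.94, edgeR adjusted p = 2.3e-05, SE 0.08; -0.19 with total counts, not passing). Srsf7, the highest of the family per length over all libraries, had 302, 317 and 328 CPM in the KO libraries, against 185, 169 and 175 CPM in the WT libraries. It too was separated between groups, at 0.84 (edgeR adjusted p = 9.82e-06, SE 0.06), but was called lower at -0.29 with total counts. The excluded symbol Srsf3-ps was also called higher, at 1.12 (edgeR adjusted p = 0.000616), and reads of Srsf3 may be shared with it.

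Srsf2 did not pass. This SR protein, which binds exonic enhancers, lies on chromosome 11 (116849901 to 116853094, minus strand, GRCm38) and had 237, 256 and 278 CPM in the KO libraries, against 228, 301 and 282 CPM in the WT libraries. WT library 1 was the lowest of all and WT library 2 the highest, so the KO values lay inside the WT range. The log2 fold change was -0.07 (edgeR adjusted p = 0.654, SE 0.11) with TMM and -1.21 with total counts, where it was called lower and lay close to the median of all genes. Counts of Sf3b1 per count of Srsf2 were 2.04, 1.85 and 1.87 in the KO libraries and 1.05, 0.872 and 0.917 in the WT libraries. For U2af1 per Srsf2 the ratios were 1.24, 1.09 and 1.07 in KO and 0.833, 0.59 and 0.616 in WT. In both ratios every KO library was above every WT library, and neither ratio depends on the scaling.

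Falls among the SR genes were led by Srsf9, Srsf1 and Srsf11, and all 3 remained lower with total counts and after the length and GC correction. Srsf1, the prototype SR protein, had 4.62, 4.24 and 4.67 CPM in the KO libraries, against 8.01, 9.36 and 9.95 CPM in the WT libraries. Every KO library was below every WT library, with a log2 fold change of -1.02 (edgeR adjusted p = 0.000472, SE 0.14). Srsf11 had 59.3, 54.7 and 50.4 CPM in the KO libraries, against 95.8, 107 and 99.4 CPM in the WT libraries, and a log2 fold change of -0.88 (edgeR adjusted p = 4.04e-05, SE 0.08). Srsf9 was scarce, at 0.956, 0.735 and 0.870 CPM in the KO libraries and 1.94, 2.37 and 2.02 CPM in the WT libraries, and had the largest fall of the 69 genes at -1.30 (edgeR adjusted p = 0.00541, SE 0.27). Srsf10 fell by 0.34 on the log2 scale, and that call was lost after the length and GC correction and without WT library 2 or 3. Srsf6 had 171, 131 and 84.9 CPM in the KO libraries, against 87.7, 101 and 99.2 CPM in the WT libraries; KO library 3 lay below the WT libraries and KO libraries 1 and 2 above them, and the gene did not pass (edgeR adjusted p = 0.15). It was called higher without KO library 3 and after the length and GC correction, at 0.63 in that fit (edgeR adjusted p = 0.0354). Counts of Srsf3 per count of Srsf1 were 66.6, 76.2 and 61.6 in the KO libraries and 17.8, 18.1 and 16.6 in the WT libraries, whereas Srsf3 per Srsf7 overlapped between groups.

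Prpf genes, named for yeast pre-mRNA processing factors and including core U5 and U4/U6 proteins, mostly did not pass. With TMM 2 were higher, 3 lower and 8 not passing of 13, against 17.2% higher and 14.4% lower of all genes tested. With total counts 13 of 13 were lower, against 70.7% of all genes. Prpf8, the large U5 protein at the catalytic centre, had 16.1, 20.2 and 18.6 CPM in the KO libraries, against 21.5, 20.6 and 19.7 CPM in the WT libraries, and its groups overlapped (log2 fold change -0.17, edgeR adjusted p = 0.25, SE 0.10). Prpf31, a U4/U6 protein and the highest of the family per length, stood at 0.09 (edgeR adjusted p = 0.357, SE 0.07) with TMM and -1.04 with total counts, and was called higher after the length and GC correction. The members that rose were Prpf19, a ubiquitin ligase of the active spliceosome, and Prpf38b, at 0.46 and 0.44 with TMM but -0.67 and -0.69 with total counts. Prpf40b, a homologue of a yeast U1 snRNP protein, fell by the most, with 2.42, 2.46 and 1.81 CPM in the KO libraries, against 3.73, 4.14 and 4.15 CPM in the WT libraries (log2 fold change -0.84, edgeR adjusted p = 0.00946, SE 0.19). Prpf18, a factor of the second catalytic step, had a log2 fold change of -0.63, a call lost with DESeq2, after the length and GC correction with and without the block, and without any 1 library other than WT library 2 (adjusted p = 0.0513 to 0.199 in those fits). Prpf38a, needed for activation of the spliceosome, had -0.54, a call lost after the length and GC correction and without WT library 2 (edgeR adjusted p = 0.0516 in that fit).

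Hnrnp genes held the largest single rise. With TMM 5 rose, 3 fell and 12 did not pass of 20. These shares, 25% and 15%, lay near the 17.2% and 14.4% of all genes tested. With total counts 1 was higher and 17 lower, where 70.7% of all genes were lower. Hnrnpa2b1, which encodes the RNA-binding proteins hnRNP A2 and B1, had 714, 754 and 712 CPM in the KO libraries, against 177, 159 and 181 CPM in the WT libraries. The lowest KO library was far above the highest WT library, and the KO over WT fold was 4.22 with TMM (log2 fold change 2.08, edgeR adjusted p = 7.14e-08, SE 0.07). With total counts it was also called higher, at 0.94 (edgeR adjusted p = 1.72e-06). Hnrnpa1, the related A-type family member, had 137, 152 and 167 CPM in the KO libraries, against 169, 192 and 167 CPM in the WT libraries, and did not pass (log2 fold change -0.21, edgeR adjusted p = 0.107, SE 0.09), except without KO library 3, when it was called lower. The KO libraries had 5.22, 4.96 and 4.27 counts of Hnrnpa2b1 per count of Hnrnpa1, and the WT libraries had 1.05, 0.828 and 1.08.

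Hnrnpf and Hnrnpk were the next largest rises in the family. Hnrnpf, which binds G-rich tracts, had 305, 314 and 315 CPM in the KO libraries, against 125, 136 and 143 CPM in the WT libraries, and a log2 fold change of 1.21 (edgeR adjusted p = 1.19e-06, SE 0.07), with 0.08 and no call under total counts. Hnrnpk, which binds C-rich tracts, had 815, 849 and 968 CPM in the KO libraries, against 382, 434 and 395 CPM in the WT libraries, and 1.12 (edgeR adjusted p = 6.4e-06, SE 0.08), with -0.02 under total counts. Neither gene's groups overlapped with TMM. Hnrnpc, which binds uridine tracts, and Hnrnpm rose by 0.58 and 0.55 with TMM and were called lower with total counts, at -0.55 and -0.59. Hnrnpf's paralogue Hnrnph1 did not pass, at -0.0037 (edgeR adjusted p = 0.985, SE 0.10). After the length and GC correction it turned to 0.30 and was called higher (edgeR adjusted p = 0.0226), also with the replicate block added.

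The falling Hnrnp genes were Hnrnpab, Hnrnpll and Hnrnpu. Hnrnpab had 19.4, 16.7 and 17.8 CPM in the KO libraries, against 34.1, 33.2 and 33.1 CPM in the WT libraries, with every KO value below every WT value (log2 fold change -0.90, edgeR adjusted p = 4.63e-05, SE 0.09). Hnrnpll, known for directing alternative splicing of CD45 in T cells, had 3.11, 2.60 and 3.24 CPM in the KO libraries, against 5.11, 5.65 and 5.25 CPM in the WT libraries, at -0.84 (edgeR adjusted p = 0.00375, SE 0.16), and its call was lost when the replicate block and the length and GC correction were combined. Hnrnpu, a nuclear scaffold protein, was at -0.49, a call lost after the length and GC correction. Hnrnpl, whose paralogue is Hnrnpll, was scattered, with 5.31, 11.2 and 5.68 CPM in the KO libraries and 13.6, 5.65 and 9.35 CPM in the WT libraries.

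**Figure D3:**
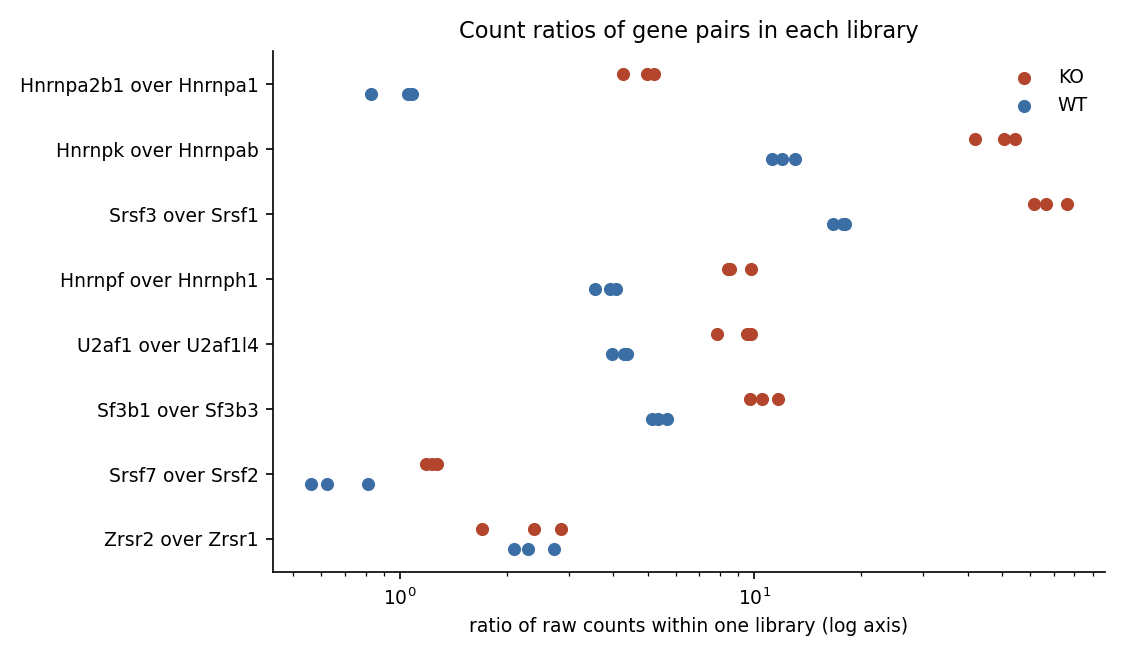
Ratios of raw counts between pairs of splicing genes within each library, on a log axis, with the KO points drawn above the WT points in each row. Each point is 1 library, and ratios within a library need no scaling between libraries. Of the 8 pairs drawn, Zrsr2 over Zrsr1 overlaps between KO and WT, and in the other pairs every KO library lies above every WT library.

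Altogether 16 such ratios were computed, for pairs chosen after the values of the genes were known, so no test was made of them. In 11 pairs every KO library was above every WT library, in 1 (U2af1 over U2af2) every KO library was below, and 4 overlapped. The ratios are of counts and are not corrected for length, so they compare libraries and not the levels of both genes.

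Level and direction ran together across the 69 genes. On the deposited length-scaled values (FPKM), Snrpe was the highest of them in both groups, at 455 ± 16.5 FPKM in KO and 410.2 ± 19.3 FPKM in WT (mean ± SD, n = 3 each). Hnrnpa2b1 ranked 4 of the 69 in KO and 13 in WT, at 254 ± 11.9 FPKM in KO and 132 ± 8.99 FPKM in WT (n = 3 each). Prpf40b was the lowest in KO at 0.321 ± 0.0643 FPKM, and Sf3a2 the lowest in WT at 1.09 ± 0.0843 FPKM (n = 3 each). Across the 69 genes, Spearman's rho between mean FPKM and the log2 fold change with TMM was 0.713, and across the 15455 tested genes with a length it was 0.282. These are descriptions across genes that share the same 6 libraries.

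Abundant genes of any function tended to be called higher with TMM, and the splicing genes have to be read against that. Of all tested genes with a mean of 100 FPKM or more, 80.6% were called higher, compared with 14 of 15 splicing genes in that class. The 9 Sm and snRNP genes among them, Snrpert included, all rose, with a median log2 fold change of 0.92. The median of all tested genes of that class was 0.91. In the next class, 30 to 100 FPKM, 9 of 18 splicing genes were called higher against 48.1% of all genes. From 10 to 30 FPKM it was 4 of 12 against 30.8%, and from 3 to 10 FPKM 1 of 12 against 18.3%. Lower calls numbered 0 of 15 at 100 FPKM or more, against 3.37% of all genes, 3 of 18 at 30 to 100 FPKM, against 16.2%, 2 of 12 at 10 to 30 FPKM, against 23.9%, and 1 of 12 at 3 to 10 FPKM, against 24.6%. Under 3 FPKM none of 12 splicing genes was called higher, against 5.09% of all genes, and 5 of the 12 were called lower, against 10.5%. In both sets the share of higher calls was larger in each class than in the one below it. With total counts the median log2 fold change of the 15 splicing genes at 100 FPKM or more was -0.29, and that of all genes in the class was -0.22.

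**Figure D4:**
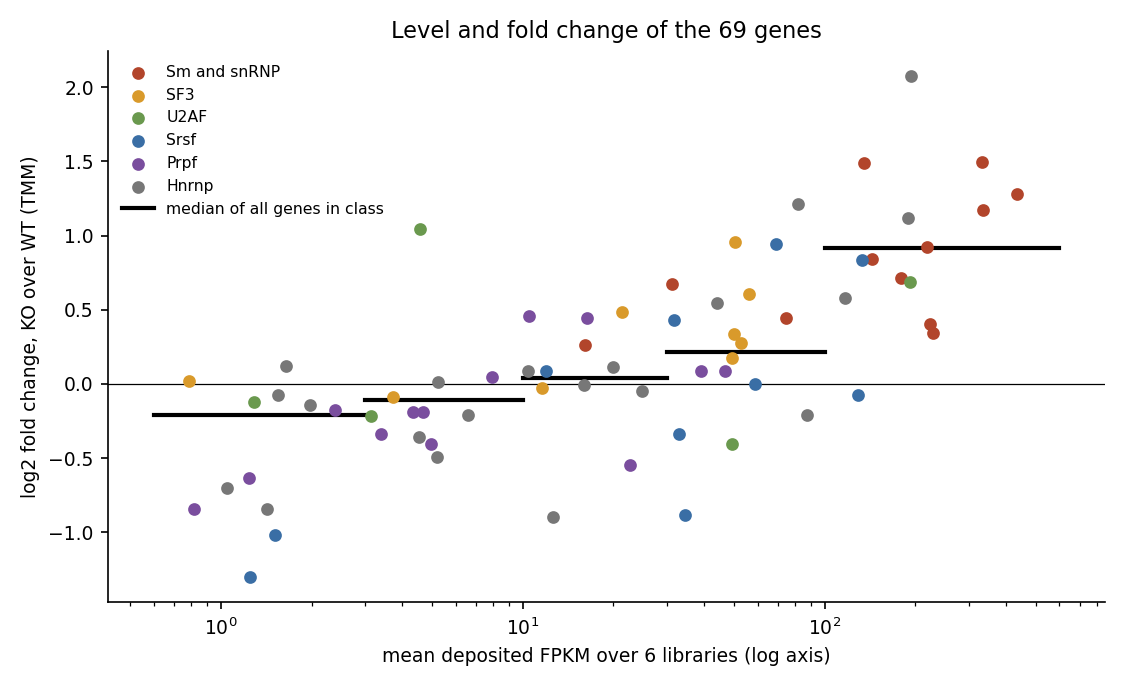
Log2 fold change with TMM (KO over WT) against the mean deposited FPKM over all 6 libraries on a log axis, 1 point per splicing gene, coloured by family. Black bars are the median of all tested genes in each of 5 FPKM classes, the outer classes being drawn only over the range shown. Both the points and the bars are higher at higher levels, and at 100 FPKM or more the bar stands at 0.91.

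The make-up of the splicing genes' own RNA differed between the groups, and no scaling between libraries affects these shares. Sm and snRNP genes took 38.7 ± 0.417% of the counts of all 69 genes in KO and 33.8 ± 1.61% in WT (mean ± SD, n = 3 each). Hnrnp genes took 27.6 ± 0.753% in KO and 23.9 ± 0.665% in WT. The other families held smaller shares in KO, with Srsf genes at 12.3 ± 0.357% in KO and 16.0 ± 1.04% in WT, and Prpf genes at 5.21 ± 0.11% in KO and 8.25 ± 0.11% in WT. SF3 genes held 12.9 ± 0.0115% in KO and 14.2 ± 0.124% in WT, and U2AF genes 3.38 ± 0.0513% in KO and 3.78 ± 0.149% in WT. For each family no KO library overlapped any WT library. Leaving out each gene of a family in turn ended that separation for Hnrnp without Hnrnpa2b1 and for U2AF without U2af1l4, and for no other gene and family. Without Hnrnpa2b1 the Hnrnp share was 21.4, 21.7 and 23.0% in the KO libraries and 21.0, 22.3 and 22.2% in the WT libraries, and without U2af1l4 the U2AF share was 3.14, 2.98 and 3.10% in the KO libraries and 3.28, 3.09 and 3.02% in the WT libraries. Together the 69 genes took 0.691 ± 0.0164% of all counts in KO and 0.938 ± 0.0282% in WT. On the TMM scale their sum was 10232 ± 43.6 CPM in KO and 6333 ± 28.6 CPM in WT, so the direction of the sum depended on the scale.

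**Figure D5:**
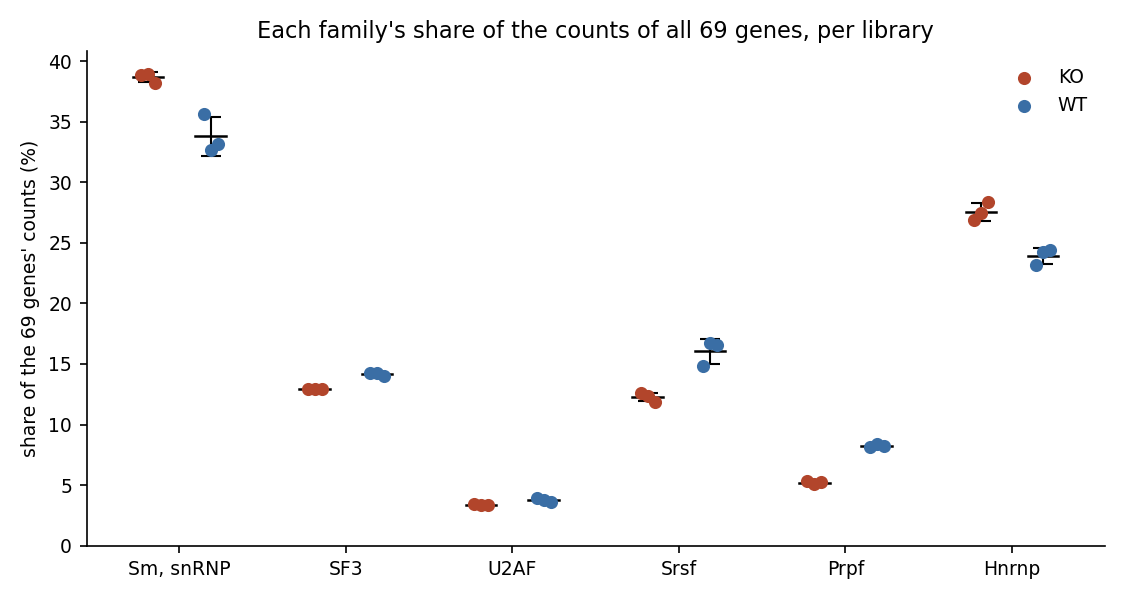
Share of the 69 genes' counts held by each family, in percent, for KO (left of each pair) and WT (right). Points are libraries, lines are means and bars are SDs (n = 3 each). Sm and snRNP and Hnrnp genes hold more in KO than in WT, and the other 4 families hold less, but the groups overlap for Hnrnp without Hnrnpa2b1 and for U2AF without U2af1l4.

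Splicing genes outside the symbol rule were examined as 6 lists. Of 167 listed genes 159 were found and tested, and with TMM 31 rose, 44 fell and 84 did not pass, while total counts gave 1 higher and 153 lower. The 19.5% that rose and 27.7% that fell with TMM compare with 17.2% and 14.4% of all genes tested, and with total counts 4.23% of all genes were higher and 70.7% lower. Their median log2 fold change was -0.11 with TMM, where that of all genes was -0.09. The length and GC correction turned this split round, to 53 higher and 20 lower, against 21.0% higher and 9.11% lower of all genes. Without WT library 2 or 3 the lower calls numbered 28 and 27. Over all genes, lower calls then numbered 1356 and 1419, in place of 2229 with all libraries. Ddx5, an RNA helicase that acts in splicing, had 1106, 1114 and 1076 CPM in the KO libraries, against 314, 338 and 364 CPM in the WT libraries, without overlap. It had the largest rise of the 159, at 1.70 (edgeR adjusted p = 1.47e-07, SE 0.07), and was the one gene of these lists called higher with total counts, at 0.56.

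Of 11 minor spliceosome genes, whose products remove a rare class of introns, 5 fell and 6 did not pass, where 14.4% of all genes tested fell. With total counts 11 of 11 were lower, against 70.7% of all genes. The count of rises was 0 in edgeR, where 17.2% of all genes rose, and 0 in DESeq2, against 2830 of 18132 genes. It was also 0 in edgeR at an unadjusted p under 0.05, but the share of all genes at that threshold is not given. Dhx16, a helicase placed in that list, was at -0.94 (edgeR adjusted p = 0.000561, SE 0.13), Pdcd7 at -0.71, Snrnp35 at -0.47 and Zmat5 at -0.37, the last 3 being proteins of the U11/U12 snRNP. The call of Zmat5 was lost without KO library 2, WT library 1 or WT library 2 (edgeR adjusted p = 0.0565 to 0.0644), and that of Snrnp35 without any of those or WT library 3 (0.0581 to 0.0722). Among 34 further snRNP and LSm genes 10 rose and 10 fell, where 17.2% of all genes tested rose and 14.4% fell. Lsm4, a protein of the ring on U6 RNA, had 6.66, 4.89 and 5.92 CPM in the KO libraries, against 21.8, 24.1 and 19.8 CPM in the WT libraries, and fell by the most of the 159 genes at -1.91 (edgeR adjusted p = 6.4e-06, SE 0.14). The tri-snRNP protein gene Usp39 fell, with a log2 fold change of -1.31, and the helicase gene Ddx39b rose by 0.89 with TMM but stood at -0.24 with total counts.

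The remaining lists also held calls in both directions with TMM, to be set beside the 17.2% of all genes tested that rose and the 14.4% that fell. Exon junction complex genes gave 4 higher and 5 lower of 14, with Eif4a3, Rbm8a and Sap18 at 0.75, 0.73 and 0.57 and Srrm2 at -0.44. With total counts those that rose turned to -0.38, -0.41 and -0.57. Genes of the Prp19 complex and the catalytic steps gave 4 higher and 10 lower of 33, among them Smu1 and Bud31 at 0.34 and 0.36 and Snw1 and Xab2 at -0.44 and -0.44. SR-like proteins and SR kinases gave 4 higher and 5 lower of 23, with Rbm39 and Tra2b at 0.55 and 0.42, Clk4, a kinase of SR proteins, at -0.64, and Sfswap at -0.83. Other splicing regulators gave 9 higher and 9 lower of 44, with Rbmxl1 and Ilf2 at 0.49 and 0.37 and Pspc1, a paraspeckle protein, at -0.98. The lower calls of Srrm2 and Snw1 were lost after the length and GC correction. All of the genes named here as higher, Ddx5 apart, were called lower with total counts.

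The length that the deposited FPKM and counts together imply for a gene was compared between libraries, scaled by the constant of genes with 1 annotated transcript. It was within 5% over all 6 libraries for 30 of the 69 splicing genes. Zrsr2 had an implied length of 2343, 2540 and 1827 bases in the KO libraries and 1546, 1624 and 1450 bases in the WT libraries, so the KO libraries were all above. It was the one splicing gene that was higher in every KO library and by 1.1-fold or more on the means, a pattern found in 4.56% of all genes compared. The opposite pattern, lower in every KO library by the same margin, was found in Srsf7, Hnrnpa3, Hnrnpc, Hnrnph3 and Hnrnpr, and in 1.7% of all genes compared. Srsf7 had 1383, 1366 and 1314 bases in the KO libraries and 1608, 1589 and 1663 bases in the WT libraries. Hnrnpc had 1645, 1669 and 1683 bases in the KO libraries and 1968, 1751 and 2028 bases in the WT libraries. The sources used here do not say how the authors set a gene's length in each library, and no test was made of these values.

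Promoter sequences were read for 59 of the 69 genes from RefSeq (GRCm38.p6), as the 250 bases before a transcription start that RefSeq gives, taking for each gene the start nearest to its GENCODE start. The RefSeq start lay inside the GENCODE gene for 31 of the 59, and 11 windows were wholly inside it, so these windows are not all upstream sequence. Of 9 short motifs searched on both strands, the ETS core CCGGAA was found in 45.8% of the 59 windows, in 23.1% of the windows of the tested genes and in 12.0% of all windows of that length. Its share was 50.0% among genes that rose with TMM, 44.4% among those that fell and 42.9% among those that did not pass. The GC box GGGCGG was in 67.8% of the 59 windows and in 57.6% of those of the tested genes, and its share was 45.5%, 88.9% and 78.6% in the same order of calls. CCAAT was in 45.8% of the 59 against 37.1% of tested genes, CACGTG in 8.47% against 8.33%, TATAAA in 8.47% against 6.53%, and TGACGTCA in 3.39% against 2.72%. CCGGAAG, which contains the ETS core, was in 28.8% against 14.4%. The palindromic NRF1 consensus was in 0 of the 59 windows against 1.62% of tested genes, and AAGATGGCG in 0 against 1.22%. A match is a description of these letters and not evidence of binding.

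The following 4 windows are shown because they belong to the genes with the largest rise and the largest fall and to 2 of the factors recurrently mutated in human disease. Capitals mark ETS cores and GC boxes on either strand. The windows are on GRCm38.p6, each written 5' to 3' on the strand of its gene, at chr6:51469895-51470144 (minus strand) for Hnrnpa2b1, chr5:115326927-115327176 (plus strand) for Srsf9, chr1:55027479-55027728 (minus strand) for Sf3b1 and chrX:163958667-163958916 (minus strand) for Zrsr2.
Hnrnpa2b1: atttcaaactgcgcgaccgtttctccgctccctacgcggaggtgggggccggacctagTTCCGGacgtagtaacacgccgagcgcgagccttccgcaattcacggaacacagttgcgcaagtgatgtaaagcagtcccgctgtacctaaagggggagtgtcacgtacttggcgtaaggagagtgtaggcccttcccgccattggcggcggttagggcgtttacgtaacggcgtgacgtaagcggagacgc
Srsf9: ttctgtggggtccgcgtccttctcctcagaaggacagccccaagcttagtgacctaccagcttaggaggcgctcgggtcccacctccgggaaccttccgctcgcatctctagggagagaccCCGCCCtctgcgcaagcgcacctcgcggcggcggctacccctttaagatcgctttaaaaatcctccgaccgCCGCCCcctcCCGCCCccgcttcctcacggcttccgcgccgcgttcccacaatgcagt
Sf3b1: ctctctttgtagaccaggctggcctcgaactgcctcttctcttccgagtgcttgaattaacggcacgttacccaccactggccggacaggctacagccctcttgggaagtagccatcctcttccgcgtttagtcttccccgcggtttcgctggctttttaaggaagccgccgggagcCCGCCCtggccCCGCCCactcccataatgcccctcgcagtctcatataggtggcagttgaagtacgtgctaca
Zrsr2: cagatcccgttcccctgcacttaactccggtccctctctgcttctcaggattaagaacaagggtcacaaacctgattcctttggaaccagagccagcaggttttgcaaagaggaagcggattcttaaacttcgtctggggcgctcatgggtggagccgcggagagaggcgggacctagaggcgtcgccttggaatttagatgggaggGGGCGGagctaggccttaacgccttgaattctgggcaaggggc
The Hnrnpa2b1 window holds 1 ETS core and 0 GC boxes. In the windows of Srsf9, Sf3b1 and Zrsr2 there are 3, 2 and 1 GC boxes and 0 ETS cores. The last 3 bases of the Sf3b1 window lie in an annotated exon of the gene, and the other windows shown hold 0 such bases.

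The authors' deposited table gave the class UP to 8 of the 69 genes, DOWN to 2 and STABLE to 59. The UP and DOWN genes were the same as those called here at 2-fold or more. Genes called here at a smaller fold, such as Sf3b1 and Srsf11, were all STABLE. That class therefore does not mean unchanged.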

How the data were processed

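The authors deposited raw read counts per gene and library, and a length-scaled value taken here as FPKM because, for genes with 1 annotated transcript, at least 98.4% of values in each library were within 1% of a fixed multiple of counts per kilobase and library size. The submitters' processing notes list HISAT2 2.2.1, fastp 0.22.0, DESeq2 1.32.0, featureCounts 2.0.1 and build mm10, but neither order nor settings. The sources used here do not say if counting used strand, so reads of overlapping or antisense genes cannot be told apart. The deposited mean signal, log2 fold changes, test score and p-values are the authors' own DESeq2 comparison, and only its class per gene is quoted.

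Counts were tested with edgeR 4.0.16 in R 4.3.3 (TMM, filterByExpr defaults, quasi-likelihood test, two-sided, group as the only term), with p-values adjusted by Benjamini-Hochberg over the 15474 genes tested. The standard error is the size of the log2 fold change over the square root of F. FPKM served to compare levels between genes. Gene positions are from GENCODE vM21 (GRCm38). The alternatives were total counts, RLE size factors, DESeq2 1.42.0, 2 other filters, a smooth in exon length and GC content, a replicate block, and leaving out each library.

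The genes, the 6 lists of other splicing genes, the marker lists and the rule for naming genes were chosen with earlier results of these data known. The rule named Sf3b1, Srsf2, U2af1 and Zrsr2, the highest member of each family by FPKM, up to 3 called rises and 3 called falls per family, and up to 4 genes of lowest p per list; a gene it named is not reported here. Other genes named, the gene pairs, the FPKM classes, the comparison of implied lengths and the promoters shown were chosen after values were seen. On simulated data with known changes, on which the procedure was tested, genes of low count were recovered less often and false calls exceeded the nominal share.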

Additional observations from a re-analysis of the deposited data

How the results depend on the processing

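The choice of scaling decided many directions. With total counts the 69 genes gave 3 higher and 60 lower calls, the other splicing genes 1 and 153, and all genes 655 and 10937, in place of 28 and 11, 31 and 44, and 2669 and 2229 with TMM. Higher calls made up 54.5% of all calls with TMM, 5.65% with total counts and 69.7% after the length and GC correction. That correction left 7 of the 69 genes lower (6 with the replicate block added), gave 53 higher and 20 lower of the other splicing genes (51 and 18 with the block), and 1408 lower calls over all genes (1149 with the block). The summed level of the 69 genes had a log2 ratio of KO over WT of -0.44 as a share of counts, 0.69 in TMM-scaled CPM and -0.31 in FPKM. Beyond the construction of each scaling the cause was not tested.

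Leaving out 1 library at a time gave 27 to 28 higher and 9 to 11 lower of the 69 genes, 23 to 31 higher and 27 to 42 lower of the other splicing genes, and 2226 to 2542 higher and 1356 to 2142 lower of all genes. The summed share moved between -0.46 and -0.42. RLE size factors, DESeq2 and either other filter kept all these counts within 1.5 times. Over the 13 alternatives other than total counts, 27 of the 28 higher calls, 6 of the 11 lower calls and 14 of the 30 genes that did not pass kept their call in every one.

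With total counts the log2 fold change of these genes, all named by the rule, changed sign: Sf3b1 -0.18, U2af1 -0.45, Sf3b5 -0.53, Sf3b4 -0.65, U2af2 -0.088, Srsf7 -0.29, Srsf3 -0.19, Prpf31 -1.04, Prpf19 -0.67, Prpf38b -0.69, Hnrnpk -0.016, Eif4a3 -0.38, Sap18 -0.57, Rbm8a -0.41, Rbmxl1 -0.64, Ilf2 -0.76, Smu1 -0.80, Bud31 -0.77, Rbm39 -0.58, Tra2b -0.71 and Ddx39b -0.24. Some others of the 69 also changed sign, and turned from higher to lower calls. They were Snrpa, Snrpa1, Snrpb2, Snrpc, Snrpd1, Snrpd2, Snrpd3, Snrpf, Sf3b2, Sf3b6, Hnrnpc and Hnrnpm. Srsf2 turned to 0.186 after the length and GC correction and 0.19 with the block added, and ranged from -0.17 to 0.021 without single libraries, the high end without WT replicate 2. Zrsr2 turned to 0.070 after that correction and 0.071 with the block added. None of these Srsf2 and Zrsr2 values passed. Sf3b3 and Hnrnph1 also turned after that correction, to 0.31 and 0.30, and passed. An alternative chosen after seeing the data left out each gene of a family in turn: the KO minus WT difference in the family's share of the 69 genes' counts moved most without Hnrnpa2b1 (0.20 in place of 3.61 percentage points) and, for U2AF, without U2af1l4 (-0.054 in place of -0.40).

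The replicate numbers did not pair the libraries. Deviations of KO and WT libraries of the same number correlated at 0.041, -0.0051 and 0.0477, and not every library correlated best with its own number. With the replicate block 27 of the 69 genes were higher and 11 lower, 28 and 36 of the other splicing genes, and 2467 and 1906 of all genes.

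Counts limit the scarcest of the genes most, such as Srsf9, Sf3a2 and Prpf40b. The number of libraries, the unchecked genotype and the unequal composition of the libraries limit every comparison.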
